A study of Homo sapiens with 8 samples.

Results

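The genes described here encode 57 nucleolar ribosome biogenesis factors, the proteins that process ribosomal RNA (rRNA) and assemble the ribosomal subunits. They were listed by name for their known roles. The list uses no measured value in its rule, but it and its classes were drawn up with earlier results of these data known. Of the 57 genes 51 were measured, among 17492 genes tested. NOP56, DKC1, WDR43, BOP1, EBNA1BP2 and PPAN were not analysed here. The 51 measured genes were sorted by role into 6 snoRNP proteins, 20 small-subunit factors, 18 large-subunit factors and 7 general nucleolar proteins. Each was measured by 1 row of the array table.

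The samples were 8 subcutaneous tumours of SkMel147, an established human melanoma cell line, in BALB/c nude mice, which lack a thymus and most T cells. Its cells can be made to express Omomyc, an engineered fragment of MYC that pairs with MYC and its partner MAX and competes with MYC at DNA. Omomyc is switched on in the tumour cells by doxycycline, supplied in drinking water. The doxycycline group (4 tumours) was compared with a vehicle group (4 tumours) of the same line and host after 7 days of treatment begun when tumours measured 100 mm3. The sources used here do not give the vector, the clonality of the line or the age of the mice. No group received doxycycline without Omomyc, so an effect of the drug itself and one of Omomyc cannot be told apart. The labels call the samples biological replicas without saying that each came from a separate mouse, so p-values measure the spread between these samples.

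Ribosome production starts in the nucleolus, where RNA polymerase I transcribes a long rRNA precursor. Small nucleolar ribonucleoproteins (snoRNPs) of the box C/D kind add methyl groups to the ribose of the precursor, and those of the box H/ACA kind convert uridine to pseudouridine. The small-subunit processome folds and cleaves the small-subunit part, and a separate set of factors builds the large subunit. Genes of this pathway are among the best known targets of MYC. The comparison asks which of them changed once Omomyc was induced in growing melanomas.

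Values are log2 levels from arrays that the authors normalised together, so a difference of 1 is 2-fold. MYC, whose probes may also detect the transgene, was at 5.92, 5.42, 5.92 and 5.26 in vehicle replicates 1 to 4 and at 5.49, 7.22, 7.74 and 6.78 in doxycycline replicates 1 to 4. Doxycycline replicate 1 lay within the vehicle range and the other doxycycline arrays above it, and with a difference of 1.18 ± 0.41 (SE) MYC missed the threshold (limma, p adjusted over all genes, 0.0987). Of 9 proliferation markers all 9 fell, with a mean level between 7.83 and 8.52 in vehicle arrays and between 5.82 and 6.13 in doxycycline arrays. Of 7 fibroblast markers, COL1A1, COL1A2 and PDGFRA rose and none fell, and the mean of the list ranged from 5.52 to 6.64 with vehicle and from 7.02 to 8.10 with doxycycline. Of 11 leukocyte markers 1 rose (LYZ; list mean 3.36 to 3.89 with vehicle and 3.73 to 4.24 with doxycycline). None of the 7 endothelial (3.27 to 3.41 and 3.22 to 3.87) or 3 erythroid markers (3.79 to 4.29 and 3.78 to 4.52) passed (limma). At an unadjusted p under 0.05 (limma), 5 fibroblast, 4 leukocyte, 2 endothelial and 1 erythroid markers were higher and none was lower. Of all genes 12.5% were higher at that p, and past the threshold 6.03% fell and 4.75% rose. The leukocyte marker PTPRC averaged 2.14 and the T cell marker CD3E 2.33 over the 8 arrays. Of 11 measured melanoma lineage markers the pigment genes PMEL, MLANA, TYR and TYRP1 averaged between 2.17 and 3.23, among the dim genes of the table, while SOX10 averaged 6.39 and AXL 8.15. NGFR was the 1 lineage marker that rose. The part of the changed proliferation and fibroblast markers in the values below was not tested. In bulk tumour tissue, fewer cells of a type and less RNA per cell cannot be told apart. The host cells in these tumours are mouse cells, whereas the rows carry human gene symbols. The fibroblast, leukocyte, endothelial and erythroid rows therefore cannot be read as a count of host cells. Whether their signal came from tumour or host cells was not tested.

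Of the 51 measured factors, 13 fell in doxycycline tumours and none rose. The sharpest falls were those of FBL, NAT10 and IMP4, followed by UTP18, NPM1, NOLC1 and NCL. The remaining 6 were WDR12, NIFK, NOP14, RPF2, NOB1 and PA2G4, which changed by less than 2-fold. The other 38 factors did not pass, and their differences lay between -0.72 (NOP2) and 0.56 (MYBBP1A).

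The 13 factors are 25.5% of those measured, where 6.03% of all genes tested fell (limma, adjusted p under 0.05). Of the 51 factors 49 were brighter than the median gene, and among all genes brighter than the median 9.35% fell. Among all genes 4.75% rose and among the brighter ones 7.53%, beside 0 of the factors. At an unadjusted p under 0.05 (limma), 19 of the 51 factors were lower and 1 (MYBBP1A) was higher, where 11.4% of all genes were lower, 12.5% higher and 23.9% either. All 4 doxycycline arrays lay below all 4 vehicle arrays for 20 factors and above them for none. The background shares of such genes were 8.83% and 8.86%. The median difference of the factors was -0.35, and that of all genes was 0.04. Differences were below 0 for 38 of the 51 factors and for 45.8% of all genes. For 33 of the 51 factors the 95% interval of the difference lay wholly above -1, so that a 2-fold fall lay outside it. The same held for 15001 of the 17492 genes tested, a larger share.

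The count of 13 was smaller with fewer arrays. It was 6, 10, 7 and 7 without vehicle replicate 1, 2, 3 or 4 and 7, 7, 8 and 6 without doxycycline replicate 1, 2, 3 or 4. In the same fits the share of all genes that fell lay between 4.28% and 6.04%. FBL, IMP4, NAT10, NCL, NOLC1 and NPM1 kept their calls in each of these fits and in each other alternative that was run. With each array centred on its ribosomal protein genes, which moved the median of all genes from 0.04 to 0.27, those 6 were the factors that fell, beside 3.88% of all genes, and the median of the factors was -0.12. Under that centring 33 of the 51 differences were below 0 and 42 below the median of all genes, against 42 below it in the arrays as deposited.

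**Figure D1:**
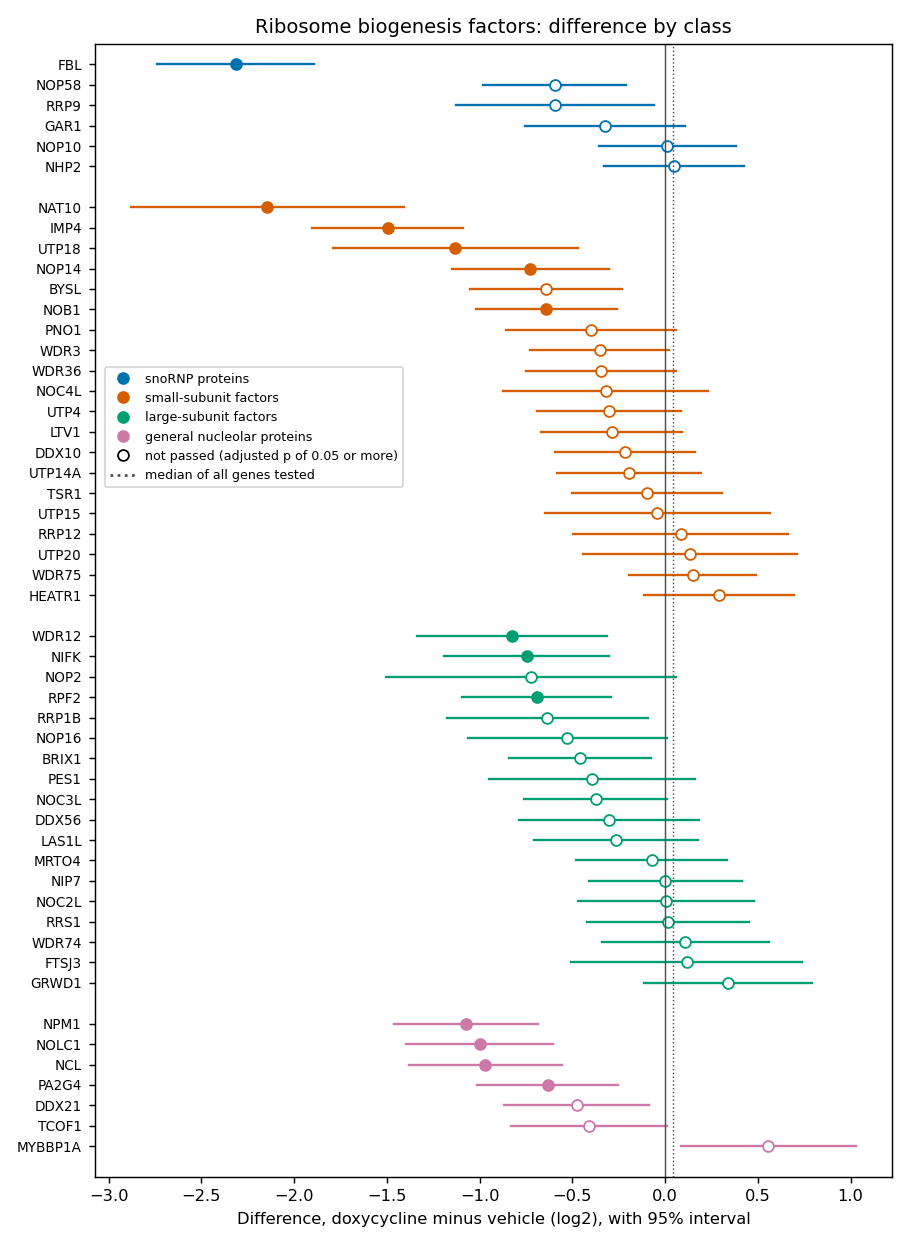
Difference between doxycycline and vehicle tumours (log2, x axis) for each of the 51 measured factors (y axis), grouped by role, with bars for the 95% interval of limma; filled points passed limma's threshold and open points did not. FBL (-2.31), NAT10 (-2.14) and IMP4 (-1.50) lie farthest to the left, and MYBBP1A (0.56), an open point, lies farthest to the right.

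Among the snoRNP proteins, FBL fell and the other 5 did not pass. FBL, fibrillarin, is the methyltransferase of the box C/D snoRNPs. Its level was 9.18, 8.88, 8.74 and 8.43 in vehicle replicates 1 to 4 and 6.61, 6.51, 6.37 and 6.49 in doxycycline replicates 1 to 4. The groups were separated by more than 1 log2 unit at their nearest arrays, and the doxycycline tumours were close to each other. FBL fell by 2.31 ± 0.19 (SE) on the log2 scale, or 4.97-fold (limma, adjusted p = 6.56e-05). Ordered from the lowest difference up, it held rank 131 among all genes tested.

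The second box C/D protein, the scaffold subunit NOP58, was at 8.75, 8.36, 8.62 and 8.37 with vehicle and at 7.71, 7.92, 7.97 and 8.12 with doxycycline. All doxycycline tumours lay below all vehicle tumours, and the difference of -0.60 ± 0.18 (SE) narrowly missed the threshold (limma, adjusted p = 0.0545). NOP58 passed as a fall with array weights (0.0322), a further quantile step (0.0370), a robust prior that follows the level (0.0146) or a filter on dim genes (0.0248). RRP9, a protein specific to the U3 snoRNP, differed by -0.59 ± 0.24 (SE), with 2 of 4 doxycycline arrays below all vehicle arrays (limma, adjusted p = 0.161). The 3 measured box C/D proteins thus had differences of -0.59 or lower.

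None of the 3 measured box H/ACA proteins passed, and none had an unadjusted p under 0.05 in limma. These are the subunits that hold the guide RNA and the pseudouridine synthase in place. NOP10 was at 10.43, 10.28, 10.53 and 10.07 with vehicle and at 10.28, 10.41, 10.28 and 10.40 with doxycycline, a difference of 0.01 with a 95% interval from -0.36 to 0.38. NHP2 differed by 0.05 (-0.33 to 0.43) and GAR1 by -0.33 (-0.76 to 0.11). The doxycycline values of NOP10 lay inside the vehicle range. Among all genes tested 6.03% fell and 23.9% had an unadjusted p under 0.05 (limma), so 0 of 3 does not set apart the H/ACA proteins. The difference between the box C/D and the H/ACA proteins was not tested.

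Sequences of the genes' start regions are shown because MYC and MAX, the proteins Omomyc competes with or binds, recognise the 6 bases CACGTG, called an E-box. The sequences are RefSeq's, of GRCh38.p14, each read 5′ to 3′ on the strand of the gene, with the E-box in capitals. For FBL, which fell most, the E-box begins at base 7 after the annotated start (chr19:39846356-39846385, minus strand, a 30-base window). NOP10, which did not change beyond its spread, has E-boxes that begin 170 and 11 bases before the start, seen in the 250 bases that precede it (chr15:34343137-34343386, minus strand).
FBL: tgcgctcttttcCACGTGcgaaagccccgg
NOP10: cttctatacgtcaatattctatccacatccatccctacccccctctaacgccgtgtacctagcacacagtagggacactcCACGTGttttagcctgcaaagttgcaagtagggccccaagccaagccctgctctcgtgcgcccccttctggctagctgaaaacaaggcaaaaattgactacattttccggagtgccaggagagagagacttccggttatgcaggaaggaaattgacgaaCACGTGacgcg

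Of the 20 measured small-subunit factors 5 fell: NAT10, IMP4, UTP18, NOP14 and NOB1. NAT10, which acetylates cytidines of the small-subunit rRNA and other RNAs, was at 6.78, 6.70, 6.67 and 6.82 with vehicle and at 4.12, 4.51, 5.75 and 4.01 with doxycycline. The vehicle tumours were nearly alike, and doxycycline replicate 3 stood above the other doxycycline tumours but below every vehicle tumour. NAT10 fell by 2.14 ± 0.33 (SE) on the log2 scale, or 4.42-fold (limma, adjusted p = 0.00225).

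IMP4, a protein that binds the U3 snoRNA in the processome, was at 7.94, 7.91, 7.88 and 7.90 with vehicle and at 6.68, 6.31, 6.62 and 6.04 with doxycycline. Its vehicle values had the narrow SD of 0.026 (n = 4), against 0.30 with doxycycline, and the groups were far apart. The fall was 2.82-fold, at -1.50 ± 0.18 (SE; limma, adjusted p = 0.000542).

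UTP18, a WD-repeat subunit of the UTP-B complex, was at 6.89, 5.46, 6.81 and 6.32 with vehicle and at 5.36, 5.41, 5.28 and 4.90 with doxycycline. Vehicle replicate 2 lay just above the highest doxycycline tumour, and the other vehicle tumours far above. UTP18 fell by 1.13 ± 0.30 (SE) on the log2 scale, or 2.19-fold (limma, adjusted p = 0.0350). The other UTP-B subunits, WDR3 and WDR36, also had all doxycycline tumours below all vehicle tumours, at -0.35 ± 0.17 and -0.35 ± 0.18 (SE), without passing (limma, adjusted p of 0.242 and 0.291).

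NOP14, a scaffold of the processome, was at 6.90, 6.57, 6.55 and 6.75 with vehicle and at 5.86, 6.27, 6.12 and 5.62 with doxycycline, and fell by 0.73 ± 0.19 (SE; limma, adjusted p = 0.0350). NOC4L, its partner, differed by -0.32 ± 0.25 (SE; limma, adjusted p = 0.496). NOB1, the endonuclease that makes the mature end of the small-subunit rRNA, was at 8.73, 8.46, 8.39 and 8.57 with vehicle and at 7.77, 7.83, 8.19 and 7.80 with doxycycline, and fell by 0.64 ± 0.17 (SE; limma, adjusted p = 0.0386). Doxycycline replicate 3 was the highest of its group for both NAT10 and NOB1. PNO1, which holds NOB1 on the precursor, differed by -0.40 ± 0.21 (SE; limma, adjusted p = 0.281).

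BYSL, bystin, a factor of the late small-subunit precursor, was at 7.0, 7.03, 6.57 and 7.08 with vehicle and at 6.16, 6.37, 6.08 and 6.50 with doxycycline. The groups did not overlap, and the difference of -0.64 ± 0.19 (SE) lay just outside the threshold (limma, adjusted p = 0.0510). Vehicle replicate 3 was the low vehicle tumour, and without it BYSL passed (limma, adjusted p = 0.0402), as it did with a filter on dim genes (0.0243) or the robust prior that follows the level (0.0338).

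The UTP-A complex, which is the first to bind the nascent precursor, gave no calls among its 4 measured subunits, and none had an unadjusted p under 0.05 in limma. Among all genes tested 6.03% fell and 23.9% had such a p, so 0 of 4 does not set apart the complex. HEATR1, its largest subunit, was at 8.35, 8.0, 8.04 and 8.40 with vehicle and at 8.21, 8.55, 8.71 and 8.48 with doxycycline. Of the doxycycline tumours 3 lay above every vehicle tumour, and the difference of 0.29 had a 95% interval from -0.11 to 0.69. WDR75 differed by 0.15 (-0.19 to 0.49), UTP15 by -0.04 (-0.65 to 0.57) and UTP4 by -0.30 (-0.69 to 0.09). For these 4 subunits the interval excluded a 2-fold fall. UTP15 was the small-subunit factor nearest to no difference. The 6 factors UTP20, UTP14A, DDX10, RRP12, TSR1 and LTV1 lay between -0.29 and 0.13, and none passed (limma).

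The start regions of the 3 small-subunit factors with the largest falls are shown for comparison with NOP10, over the 250 bases before each start on the plus strand. The E-box of NAT10 begins 15 bases before the start (chr11:34105379-34105628). That of UTP18 begins 89 bases before it (chr17:51260296-51260545), and that of IMP4 203 bases before it (chr2:130342647-130342896).
NAT10: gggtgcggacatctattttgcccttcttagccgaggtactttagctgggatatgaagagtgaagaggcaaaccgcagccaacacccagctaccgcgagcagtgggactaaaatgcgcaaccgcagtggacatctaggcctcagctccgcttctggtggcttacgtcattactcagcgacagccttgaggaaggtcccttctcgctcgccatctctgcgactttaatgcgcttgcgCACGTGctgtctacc
UTP18: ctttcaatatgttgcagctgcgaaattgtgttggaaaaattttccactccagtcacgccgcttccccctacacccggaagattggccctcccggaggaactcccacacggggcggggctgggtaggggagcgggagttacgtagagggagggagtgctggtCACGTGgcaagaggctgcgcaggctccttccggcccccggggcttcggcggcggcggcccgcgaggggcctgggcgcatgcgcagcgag
IMP4: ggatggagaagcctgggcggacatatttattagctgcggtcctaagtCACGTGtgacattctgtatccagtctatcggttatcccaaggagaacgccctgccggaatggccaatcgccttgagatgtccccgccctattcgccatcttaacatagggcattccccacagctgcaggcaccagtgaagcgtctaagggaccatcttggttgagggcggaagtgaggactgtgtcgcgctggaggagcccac

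IMP4, UTP18 and NOP14 also have an E-box just after the start, beginning at base 16, 5 and 16, shown in windows of 30 bases that place it at the same point (chr2:130342900-130342929, plus strand; chr17:51260538-51260567, plus strand; chr4:2963374-2963403, minus strand).
IMP4: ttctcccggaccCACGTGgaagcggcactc
UTP18: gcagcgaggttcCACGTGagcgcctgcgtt
NOP14: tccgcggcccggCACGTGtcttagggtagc

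**Figure D2:**
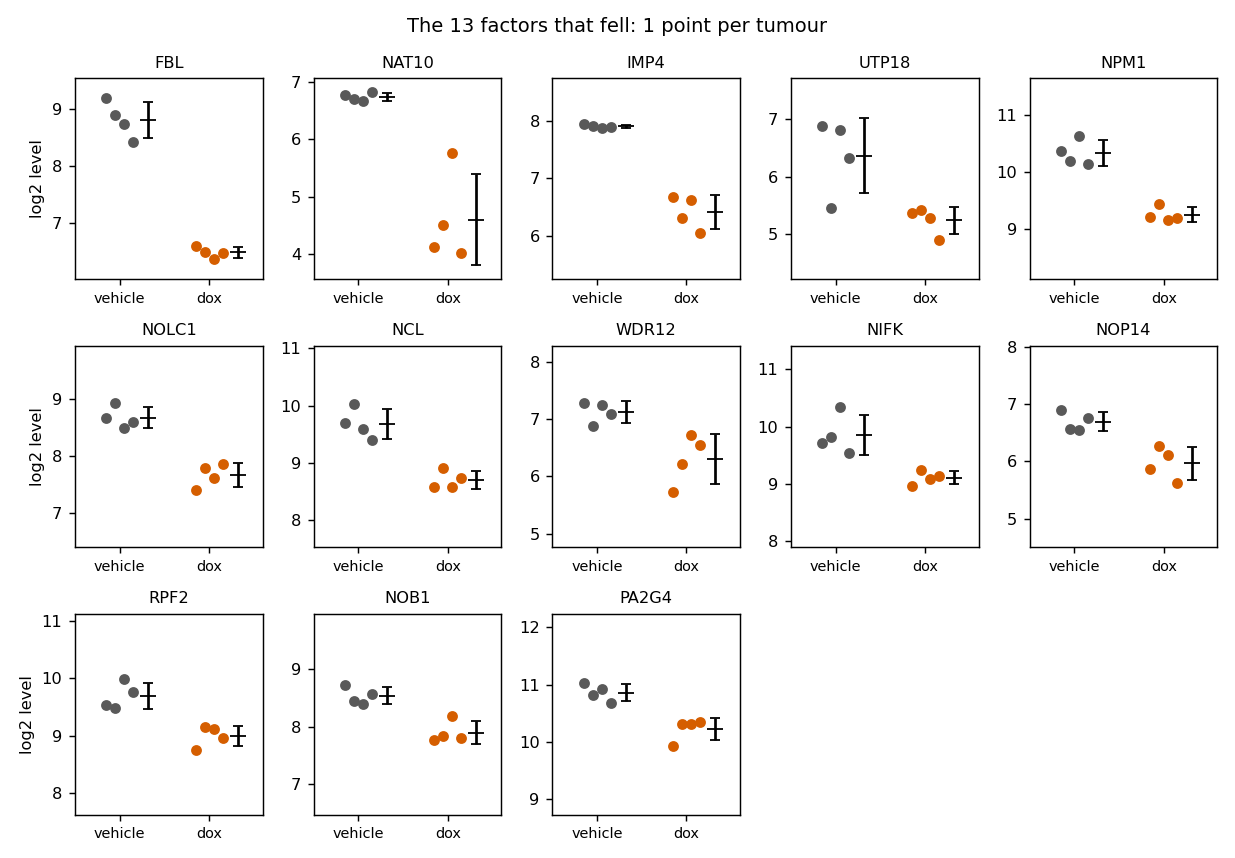
Log2 level (y axis, 3.5 units in each panel) of the 13 factors that fell, in order of the size of the fall, with 1 point per tumour for vehicle (grey) and doxycycline (dox, orange) and the mean ± SD (n = 4) beside each group. No doxycycline point reaches a vehicle point in any panel; the gap is widest for FBL and narrowest for UTP18, where vehicle replicate 2 (5.46) lies next to doxycycline replicate 2 (5.41).

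Of the 18 measured large-subunit factors 3 fell: WDR12, NIFK and RPF2, each by less than 2-fold. WDR12, with PES1 and BOP1 a member of the PeBoW complex that processes the large-subunit precursor, was at 7.29, 6.87, 7.24 and 7.09 with vehicle and at 5.72, 6.21, 6.72 and 6.54 with doxycycline. Doxycycline replicate 1 was the lowest, and replicate 3 lay close below vehicle replicate 2. WDR12 fell by 0.83 ± 0.23 (SE; limma, adjusted p = 0.0443). PES1 differed by -0.39 ± 0.25 (SE; limma, adjusted p = 0.389), with groups that overlap.

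NIFK, which binds the proliferation protein Ki-67, was at 9.71, 9.83, 10.34 and 9.54 with vehicle and at 8.96, 9.24, 9.10 and 9.14 with doxycycline, and fell by 0.75 ± 0.20 (SE; limma, adjusted p = 0.0373). RPF2, which with RRS1 brings the RNP of the smallest rRNA into the large-subunit precursor, was at 9.53, 9.48, 9.98 and 9.76 with vehicle and at 8.76, 9.15, 9.11 and 8.96 with doxycycline. It fell by 0.69 ± 0.18 (SE; limma, adjusted p = 0.0348). RRS1 itself differed by 0.02, with a 95% interval from -0.42 to 0.45. The pair that acts as 1 complex thus differed in call, but the difference between its members was not tested.

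BRIX1 (-0.46 ± 0.17, SE), RRP1B (-0.63 ± 0.25, SE) and NOP16 (-0.53 ± 0.24, SE) had the smallest p-values among the large-subunit factors that did not pass (limma, adjusted p of 0.131, 0.138 and 0.217). For BRIX1 and RRP1B, assembly factors of the early large-subunit precursor, all doxycycline tumours lay below all vehicle tumours. NOP2, a cytosine methyltransferase of the large-subunit rRNA, was at 4.76, 4.82, 5.19 and 4.70 with vehicle and at 5.14, 4.17, 4.18 and 3.10 with doxycycline. Doxycycline replicate 1 lay within the vehicle range and the others below it, and without that tumour NOP2 passed as a difference of -1.05 (limma, adjusted p = 0.0469), against -0.72 and adjusted p = 0.249 with it. NOP2 passed in no other alternative that was run, and with a mean level of 4.51 it was the dimmest of the factors. In that same tumour MYC was also within the vehicle range, while 30 of the 51 factors were at the lowest of the group. A link between MYC and NOP2 was not tested.

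NIP7, a factor of late large-subunit processing, was nearest to no difference, at 0.00 with a 95% interval from -0.41 to 0.41. NOC2L of the NOC complex differed by 0.00 (-0.47 to 0.48), whereas NOC3L differed by -0.37 (-0.76 to 0.01). GRWD1, a chaperone of a large-subunit ribosomal protein, had the highest difference of the class, 0.34 (-0.12 to 0.79), with 2 of 4 doxycycline tumours above every vehicle tumour. The 5 factors DDX56, LAS1L, MRTO4, WDR74 and FTSJ3 lay between -0.30 and 0.12 and did not pass (limma).

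Of the 7 general nucleolar proteins 4 fell: NPM1, NOLC1, NCL and PA2G4. NPM1, nucleophosmin, a chaperone of the outer nucleolus, was at 10.37, 10.20, 10.63 and 10.13 with vehicle and at 9.22, 9.45, 9.16 and 9.21 with doxycycline. It fell by 1.07 ± 0.18 (SE) on the log2 scale, or 2.11-fold (limma, adjusted p = 0.00304). The RefSeq gene table lists 50 pseudogenes named after NPM1, so its row may include signal from near-identical copies. Such copies are also listed for NIFK (9) and PA2G4 (6), and for 12 other measured factors (1 to 3 each).

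NOLC1, also called Nopp140, which gathers snoRNPs in the nucleolus, was at 8.66, 8.92, 8.49 and 8.60 with vehicle and at 7.40, 7.79, 7.62 and 7.86 with doxycycline. It fell by 1.00 ± 0.18, or 2.00-fold (SE; limma, adjusted p = 0.00519). NCL, nucleolin, which binds the rRNA precursor, was at 9.69, 10.03, 9.59 and 9.39 with vehicle and at 8.58, 8.92, 8.58 and 8.75 with doxycycline, and fell by 0.97 ± 0.19, or 1.96-fold (SE; limma, adjusted p = 0.00779). For each of these 3 genes the nearest tumours of the 2 groups were apart by more than the SD within either group. PA2G4, a growth-regulated RNA-binding protein, was at 11.03, 10.82, 10.92 and 10.68 with vehicle and at 9.94, 10.32, 10.31 and 10.36 with doxycycline, and fell by 0.63 ± 0.17 (SE; limma, adjusted p = 0.0400).

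DDX21, an RNA helicase of rRNA transcription and processing, was at 9.55, 9.42, 9.47 and 9.40 with vehicle and at 8.62, 9.15, 9.18 and 8.98 with doxycycline. The groups did not overlap, but the difference was -0.48 ± 0.18 (SE), short of the threshold (limma, adjusted p = 0.122) other than with the robust prior that follows the level (0.0349). TCOF1, treacle, which promotes transcription of the rRNA genes, differed by -0.41 ± 0.19 (SE; limma, adjusted p = 0.226). MYBBP1A, described as a repressor of rRNA transcription, was the factor with the highest difference. It was at 6.71, 6.33, 5.80 and 6.20 with vehicle and at 6.65, 7.08, 6.80 and 6.75 with doxycycline, and 3 of 4 doxycycline tumours lay above every vehicle tumour. Its difference was 0.56 ± 0.21 (SE), short of the threshold (limma, adjusted p = 0.136). Centring the arrays on ribosomal protein genes made it a rise, at 0.78 (limma, adjusted p = 0.0376).

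The start region of NPM1, a bright gene of this class that fell, holds no CACGTG in the window searched. It is shown as the contrast to NAT10, over the 250 bases before the start (chr5:171387599-171387848, plus strand).
NPM1: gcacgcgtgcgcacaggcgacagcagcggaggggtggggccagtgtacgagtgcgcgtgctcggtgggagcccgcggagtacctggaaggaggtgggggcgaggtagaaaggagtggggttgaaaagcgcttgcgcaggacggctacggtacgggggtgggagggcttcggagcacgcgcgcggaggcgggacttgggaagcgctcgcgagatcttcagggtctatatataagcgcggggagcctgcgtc

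Promoters of 44 of the 51 measured factors were found in the RefSeq table, and NOP58, RRP12, RRS1, RPF2, RRP1B, NOLC1 and TCOF1 were not matched. CACGTG, which reads the same on both strands, was searched for from 250 bases before to 50 bases after each annotated start. It was present for 20 of the 44 factors (45.5%). Of all tested genes with a promoter 10.8% held it, and of those brighter than the median gene 13%. Counted per start region rather than per gene, since some genes have several, the shares were 40.8% of 49 and 8.22% of 19898. By class, it was present for 4 of 5 snoRNP proteins, 10 of 19 small-subunit factors, 4 of 15 large-subunit factors and 2 of 5 general nucleolar proteins.

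The share with the E-box was the same number in the factors that fell, 5 of 11 (45.5%), as in those that did not pass, 15 of 33 (45.5%). The median difference was -0.40 for the 20 factors with it and -0.28 for the 24 without it. Among all tested genes that fell, 15.2% held it. These are counts of letters in a window and were not tested, and they do not show binding.

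**Figure D3:**
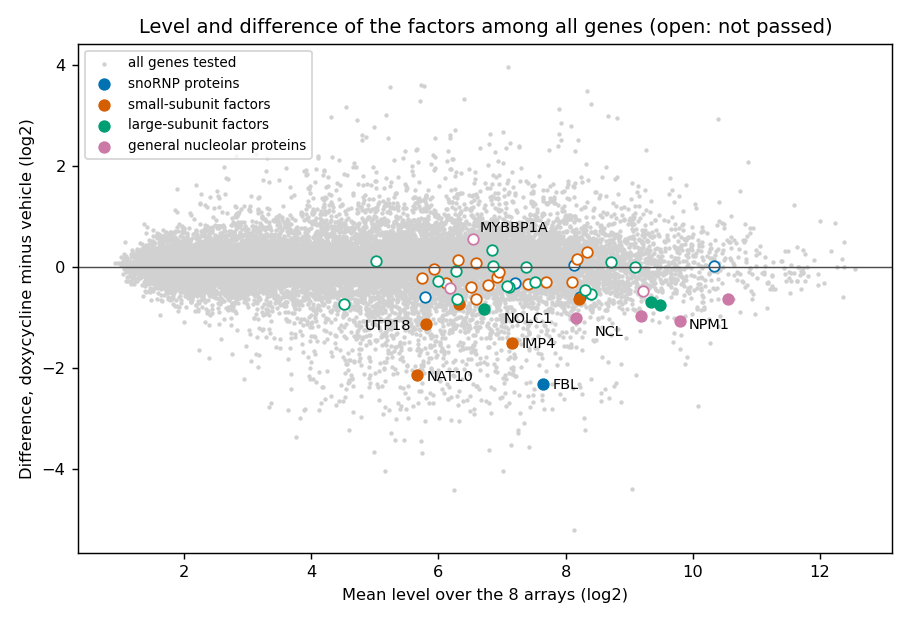
Difference between doxycycline and vehicle (log2, y axis) against the mean level over the 8 arrays (log2, x axis), for all 17492 genes (grey) and the 51 factors (coloured by class; filled, passed; open, not passed). The factors lie between 4.51 and 10.55 in level, and FBL and NAT10, near -2.31 and -2.14, lie below most grey points, with some genes lower still.

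The classes were set side by side without a test, since their members share the same tumours. The median difference was -0.46 for the snoRNP proteins, -0.31 for the small-subunit factors, -0.34 for the large-subunit factors and -0.63 for the general nucleolar proteins. The shares that fell were 1 of 6, 5 of 20, 3 of 18 and 4 of 7, beside 6.03% of all genes. The general nucleolar proteins were also the brightest, with a median level of 9.19 against 7.89, 6.68 and 7.09 in the other classes. The mean level of the snoRNP proteins was 8.20 ± 0.17 with vehicle and 7.57 ± 0.08 with doxycycline (SD, n = 4). It was 7.09 ± 0.10 and 6.65 ± 0.16 for the small-subunit factors, 7.42 ± 0.13 and 7.12 ± 0.20 for the large-subunit factors, and 8.81 ± 0.13 and 8.23 ± 0.11 for the general nucleolar proteins. The class means of all 4 doxycycline tumours lay below those of all vehicle tumours for all classes except the large-subunit factors. There doxycycline replicates 2 and 3, at 7.28 and 7.29, lay above vehicle replicate 4, at 7.26.

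**Figure D4:**
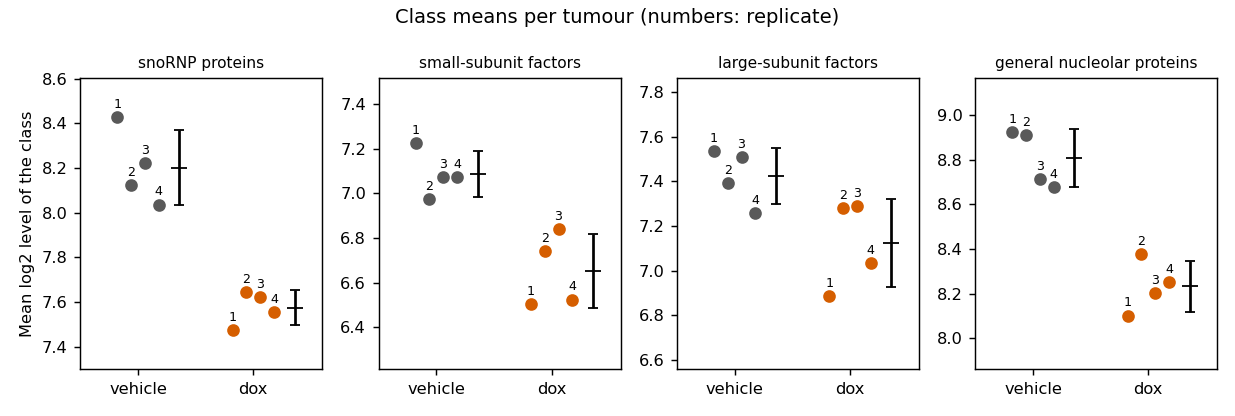
Mean log2 level of each class (y axis, 1.3 units in each panel) in each tumour, numbered by replicate, for vehicle (grey) and doxycycline (dox, orange), with the mean ± SD (n = 4) beside each group. Doxycycline replicate 1 is the lowest point of its group in all 4 panels, and the groups overlap for the large-subunit factors.

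Doxycycline replicate 1 was the lowest of its group for 30 of the 51 factors and the highest for 5. Its median deviation from the group mean was -0.20 over the factors and -0.01 over all genes. MYC was lower there than in the other doxycycline tumours, and a link between MYC and the factors was not tested. Doxycycline replicates 2, 3 and 4 were the lowest for 2, 5 and 14 factors. Among the vehicle tumours, replicate 1 was the highest for 22 factors and the lowest for 1, with a median deviation of 0.10. The mean of the proliferation markers was lowest among doxycycline tumours in replicate 3 (5.82), with replicate 1 at 6.05. Among vehicle tumours it was highest in replicate 1 (8.52). A relation between these markers and the factors was not tested.

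The other 7 calls were lost in most fits that left out 1 tumour. PA2G4 lost its call without any 1 of the 8 tumours (limma, adjusted p from 0.0562 to 0.113). NIFK lost it in all such fits except that without vehicle replicate 4 (0.0605 to 0.0918), NOB1 except without doxycycline replicate 3 (0.0513 to 0.111), and RPF2 and UTP18 except without vehicle replicate 2 (0.0566 to 0.101 and 0.0580 to 0.103). NOP14 kept it only without vehicle replicate 2 or doxycycline replicate 2 (otherwise 0.0567 to 0.103), and WDR12 only without vehicle replicate 2 or doxycycline replicate 3 (otherwise 0.0536 to 0.117). Centring on ribosomal protein genes also took the call from each of the 7 (limma, adjusted p of 0.177, 0.129, 0.217, 0.173, 0.0752, 0.162 and 0.132 for PA2G4, NIFK, NOB1, RPF2, UTP18, NOP14 and WDR12). By contrast, the highest adjusted p over all alternatives was 0.00100 for FBL, 0.00498 for IMP4, 0.0144 for NAT10, 0.0207 for NPM1, 0.0228 for NOLC1 and 0.0309 for NCL.

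**Figure D5:**
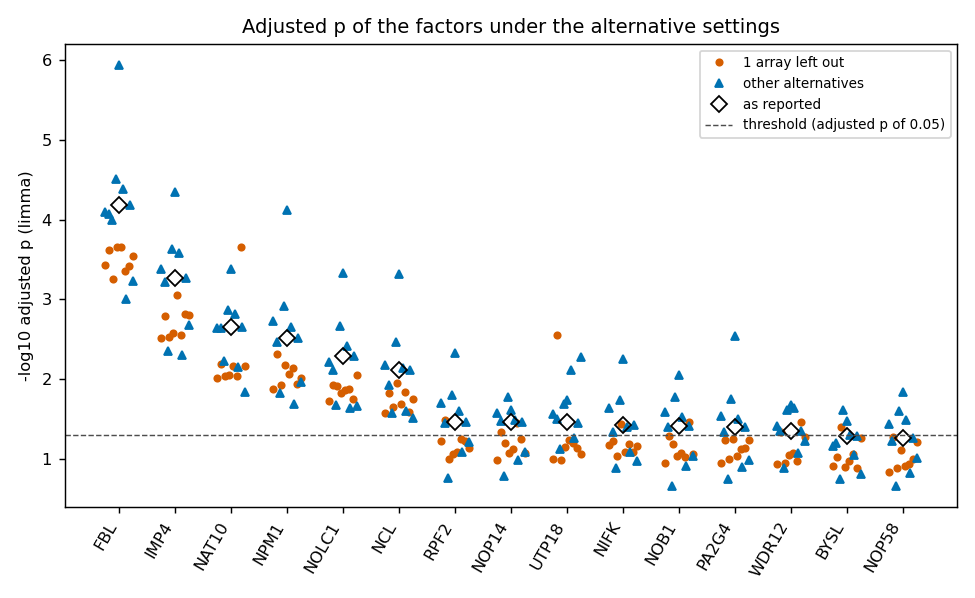
The limma adjusted p as -log10 (y axis) of the 13 factors that fell and of BYSL and NOP58, which lay just outside the threshold (x axis), as reported (diamond), with 1 array left out (orange circles) and under the other alternatives (blue triangles). All points of FBL, IMP4, NAT10, NPM1, NOLC1 and NCL lie above the dashed line at an adjusted p of 0.05, and those of the other factors lie on both sides of it.

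Other genes of the pathway, taken from lists by known role, were set beside the factors. Of 167 measured genes in 6 such lists, 16 fell (9.58%) and none rose, with a median of -0.18, and 9.35% of all genes brighter than the median fell. At an unadjusted p under 0.05 (limma) 30 of the 167 genes were lower and 5 higher, or 35 in all. Of all genes 11.4% were lower, 12.5% higher and 23.9% either. Differences were below 0 for 123 of the 167 genes and for 45.8% of all genes. All 4 doxycycline arrays lay below all 4 vehicle arrays for 37 of the 167 and above them for 5. The background shares of such genes were 8.83% and 8.86%. The count of 16 was 8 without vehicle replicate 1 and 10 without vehicle replicate 3. The 12 genes of snoRNP assembly, among them the helicases RUVBL1 and RUVBL2, gave 0 calls, where 6.03% of all genes fell. None of the 12 had an unadjusted p under 0.05 in limma, beside 23.9% of all genes.

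Of 35 other small-subunit factors 3 fell: IMP3, the partner of IMP4 and MPHOSPH10 on the U3 snoRNA (-1.63 ± 0.26, SE), AATF (-1.59 ± 0.21, SE) and the kinase RIOK1 (-1.24 ± 0.27, SE), with limma adjusted p of 0.00246, 0.000724 and 0.0147. Of 46 other large-subunit factors 6 fell, led by PAK1IP1 (-1.91 ± 0.23, SE), RSL1D1 (-1.42 ± 0.21, SE) and LYAR (-1.40 ± 0.25, SE), with limma adjusted p of 0.000432, 0.00160 and 0.00486. For all 9 genes the doxycycline tumours lay below the vehicle tumours. As shares of their lists, 8.57% of the other small-subunit factors and 13.04% of the other large-subunit factors fell. Among all genes tested 6.03% fell, and among those brighter than the median 9.35%, which is above the small-subunit share.

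Of 14 genes of the RNA exosome, which trims rRNA precursors, EXOSC9 (-0.76 ± 0.15, SE), EXOSC8 (-0.67 ± 0.17, SE) and EXOSC2 (-1.04 ± 0.27, SE) fell (limma, adjusted p of 0.00946, 0.0293 and 0.0313). Of 14 genes of RNA polymerase I and its factors, POLR1B and POLR1E fell, by 0.86 ± 0.21 and by 0.76 ± 0.19 (SE). Of 46 cytosolic ribosomal proteins, the products that these factors assemble, RPL10A and RPL19 fell (4.35%), and the median of the list was -0.24. The share that fell was 21.4% for the exosome genes and 14.3% for the RNA polymerase I genes. Beside these, 6.03% of all genes tested fell, and 9.35% of those brighter than the median.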

How the data were processed

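Biotin-labelled total RNA of 8 tumours was measured on 1 array each, per the labels. The values that the authors deposited are on the log2 scale, and the submitters' processing notes name RMA. This method subtracts background, makes the arrays' distributions alike and gives 1 value per row, so a shift of most genes in 1 direction would be partly removed. The sources used here do not give the software version, the probe definition or filters, and how far a row lies above background is unknown. The number of arrays, 4 per group, limits the precision.

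Of 18569 rows, 17511 have 1 gene symbol in the platform annotation, and the row with the highest mean was kept for each of 17492 genes. Arrays of 1 group correlated at 0.961 to 0.982 across genes and those of different groups at 0.933 to 0.955. No pair was identical. Doxycycline was compared with vehicle with limma 3.58.1 in R 4.3.3 (lmFit, eBayes, two-sided, Benjamini-Hochberg over all genes, threshold 0.05), and figures were drawn in Python 3.11.15. The procedure was tested on simulated data. "Rose" and "fell" mean past this threshold, and SE is the moderated standard error of the fit. The replicate numbers did not pair the samples.

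The factors, their classes and the gene lists were chosen with earlier results of these data known. Named are all factors past the threshold, all snoRNP proteins, in each other class the 3 with the smallest p that did not pass and the 1 nearest to no difference, the highest difference, MYC, and the 3 smallest p among called genes of each other list. Further factors are named to account for all 51, after their values were seen. Sequences are shown for all 5 factors that fell and held the E-box (FBL, NAT10, IMP4, UTP18 and NOP14). Of the factors that fell and were found without it, only NPM1 is shown. NCL, WDR12 and NIFK fell further than NOP14, had no E-box in the window and are not shown. The sequences shown thus over-represent the E-box, which 5 of the 11 factors that fell held. NOP10 is shown as a contrast. NOP14 and NOP10 were added after their values were seen. Alternatives were array weights, a robust prior that follows the level, a further quantile step, a filter that drops the dimmest 40% of genes, the mean of a gene's rows, a block for the replicate number, centring on array medians or on ribosomal protein genes, and leaving out each array or vehicle replicate 2 and doxycycline replicate 1 together.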

Additional observations from a re-analysis of the deposited data

Results flagged for a closer look

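Of 112 groups of 4 tumours examined for a value far from the rest (each factor, each class mean and MYC, in each treatment group), 6 had one, where chance flags about 1 in 20. BYSL in vehicle replicate 3 was at 6.57, against 7.0 to 7.08 in the other vehicle tumours. DDX10, a helicase of the processome, was at 5.95 in doxycycline replicate 2, against 5.54 in the others, whose range was under 0.01. RRP12, which exports the small-subunit precursor, was at 6.21 in doxycycline replicate 1, against 6.71 to 6.81, and PA2G4 in the same tumour was at 9.94, against 10.31 to 10.36. PNO1 was at 5.90 in doxycycline replicate 4, against 6.41 to 6.47. NOB1 was at 8.19 in doxycycline replicate 3, against 7.77 to 7.83.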

How the results depend on the processing

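The factors that fell numbered 13 as reported, 16 with the robust prior that follows the level, 15 with the filter on dim genes, 14 with a further quantile step or array weights, 6 after centring on ribosomal protein genes, 7 without vehicle replicate 2 and doxycycline replicate 1 together, and 6 to 10 with 1 array left out. None rose, except 1 (MYBBP1A) with centring on ribosomal protein genes. That centring also moved the median of the factors from -0.35 to -0.12 and the class medians to -0.23 (snoRNP), -0.085 (small subunit), -0.11 (large subunit) and -0.41 (general). Of the small-subunit factors 5 fell as reported, 6 with that prior or that filter, 2 with that centring, 3 without the 2 arrays together and 2 to 4 with 1 left out. The large-subunit count was 3 as reported and with that prior or that filter. It was 0 with that centring, 0 without the 2 arrays together and 0 to 2 with 1 left out. The snoRNP count was 2 in place of 1 with the quantile step, the filter, the prior and array weights. Of the other pathway genes 16 fell as reported, 7 with the ribosomal protein centring, 25 with the prior and 8 to 14 with 1 array left out. The risers were 3, 1 and 1 with that centring, with that prior and with the filter on dim genes, and 0 as reported. Of all genes, 678 fell and 1633 rose with that centring, in place of 1054 and 830, and 748 to 1057 fell and 503 to 727 rose with 1 array left out.

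With the replicate number as a block 6 factors fell (2 small-subunit, 0 large-subunit) and 502 genes rose. Deviations of same-numbered tumours from their group means correlated at -0.05, -0.15, 0.03 and -0.16, and no vehicle tumour correlated best with its own number, so the numbers gave no pairing. None of the 13 factors that fell changed sign under any alternative that was run. The causes of these changes were not tested. Levels of dim genes are limited by an unknown background.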
